A study of Homo sapiens with 12 samples.

Results

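The comparison set RNA bound to AGO2 in Jurkat cells carrying a miR-21 overexpression construct against RNA bound to AGO2 in Jurkat cells carrying a control vector. Jurkat is an established human T cell leukaemia line. The comparison used 4 of the 12 Affymetrix arrays of the study, chosen by their labels: 2 replicates of each construct, all from RNA pulled down (IP, immunoprecipitation) with an AGO2 antibody. The other 8 arrays held IP RNA obtained with control IgG and Total RNA of the same constructs, again with 2 replicates per group. All cells grew in RPMI with serum, and all RNA was freed with proteinase K and extracted with phenol and chloroform. How the construct was delivered is not given in the sources used here. Nothing in the labels says that the numbered replicates were separate cultures, so a p-value here measures only the spread between these arrays. The comparison asks which mRNAs were more or less abundant in AGO2 complexes when miR-21 was overexpressed.

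AGO2 is the Argonaute protein that carries a mature miRNA inside the RNA-induced silencing complex (RISC). The miRNA pairs through its seed, the bases near its 5′ end, with sites that lie mostly in the 3′ untranslated regions of mRNAs. The complex then represses the mRNA through TNRC6 proteins and the deadenylases they recruit. miR-21 is abundant in many tumours and in activated T cells, and its reported targets include inhibitors of RAS-ERK signalling, receptors of the TGF-beta family and regulators of apoptosis. The miR-17 to miR-92 cluster, from a different locus, is a well known oncogenic miRNA cluster of lymphoid cells, and its reported targets served as a list for a different set of seeds.

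The mature sequences below, from RefSeq (GRCh38.p14), show the seed that the construct adds and the seeds of the comparison list, with bases 2 to 8 in capitals and each sequence written 5′ to 3′. All 7 miRNAs looked up were matched by name.

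hsa-miR-21-5p: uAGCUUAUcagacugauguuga

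hsa-miR-17-5p: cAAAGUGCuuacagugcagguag

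hsa-miR-20a-5p: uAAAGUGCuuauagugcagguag

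hsa-miR-18a-5p: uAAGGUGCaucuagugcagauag

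hsa-miR-19a-3p: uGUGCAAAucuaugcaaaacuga

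hsa-miR-19b-3p: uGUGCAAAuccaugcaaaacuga

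hsa-miR-92a-3p: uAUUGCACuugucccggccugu

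The miR-21-5p sequence lies on the plus strand at chr17:59841273-59841294, and the site that pairs with its seed reads AUAAGCU in an mRNA. The other 6 lie on the plus strand of chromosome 13, from miR-17-5p at chr13:91350618-91350640 to miR-92a-3p at chr13:91351361-91351382. Among them miR-17-5p and miR-20a-5p share 1 seed, and miR-19a-3p and miR-19b-3p share another. None of these seeds is the seed of miR-21-5p. The probe sets for the miR-21 transcript also list the gene VMP1 and were left out, so the level of miR-21 itself was not checked. Target sites in mRNAs were not searched.

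The deposited values are on the log2 scale, on which a difference of 1 is a 2-fold difference. The arrays of the replicates differed in overall level: the mean over all probe sets was 4.39 to 4.41 on the 6 arrays of replicate 1 and 5.26 to 5.27 on the 6 arrays of replicate 2. T cell markers were present, with 13 of 14 genes tested and a mean level of 7.62 to 8.41 on the 4 AGO2 IP arrays. CD3D, a chain of the T cell receptor complex, was the highest of them on every array and read 11.79 to 12.09. Other T cell markers were much lower: CD3E read 5.58 to 6.29, and CD28 read 3.85 and 3.76 in replicate 1. Of the markers of other cell types, 2 of 6 B cell, 2 of 6 monocyte, 1 of 5 erythroid and 3 of 7 epithelial and kidney genes passed the filter on low values. The mean levels of those 4 lists lay between 3.62 and 4.92 on every AGO2 IP array. Single members read higher: the B cell gene CD79A read 6.21 to 7.34 and the kidney gene PAX8 6.26 to 7.12, both above CD3E on every AGO2 IP array.

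Several array measurements differed within the comparison. In replicate 1 the 3′ probe set of ACTB exceeded its 5′ probe set by 4.0 in AGO2 IP of the control vector and by 1.97 in AGO2 IP of miR-21. In replicate 2 the same differences were 2.58 and 2.08. The mean of the bioB spike-in probe sets was 12.01 and 9.08 in replicate 1 and 5.95 and 5.13 in replicate 2, control vector first. In replicate 2 each AGO2 IP array was nearly identical to the IgG IP array of its own construct, with a correlation across 12824 genes of 0.997 for the control vector and 0.992 for miR-21. The corresponding correlations in replicate 1 were 0.922 and 0.929. The part of these array properties in the results was not tested, so each result is given for each replicate alone.

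No gene differed between miR-21 and control vector in AGO2 IP RNA at an adjusted p under 0.05. The test was limma's moderated test on all 12 arrays with Benjamini-Hochberg adjustment over 12824 genes, and it called 0 genes (0% of those tested) with a smallest adjusted p of 1.00. At an unadjusted p under 0.05 it listed 11 genes, all higher with miR-21. Replicate numbers paired the arrays, and with the replicate number as a block limma again called 0 genes (0%), with 353 genes at an unadjusted p under 0.05, of which 291 were higher and 62 lower. The block lowered the median standard error (SE) of a difference from 0.77 to 0.35. Every difference below is therefore a measured value that did not pass the test. "Higher" and "lower" describe the arrays only.

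For no gene did the difference in AGO2 IP pass a test against the difference in another fraction. The test of whether the construct difference was unequal in AGO2 IP and IgG IP gave 0 called genes (0%) by limma without the block, with 0 at an unadjusted p under 0.05, and 0 with the block, with 39 at an unadjusted p under 0.05. The same test for AGO2 IP and Total RNA gave 0 called genes (0%) without the block, with 0 at an unadjusted p under 0.05, and 0 with it, with 60. For the construct in IgG IP and in Total RNA alone limma called 0 genes each with and without the block. There 123 and 3 genes had an unadjusted p under 0.05 with the block, and 4 and 0 without it.

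A fit to the 4 AGO2 IP arrays alone, with the replicate block, called 49 genes (0.382% of those tested), 48 higher and 1 lower with miR-21. That fit had 1 residual degree of freedom and gave every gene the same SE of 0.41, so it ranked genes by their mean difference and did not use how alike a gene's replicates were. Of the 49 genes, 17 differed by 1 or more in the same direction in both replicates, and 17 had a replicate 1 difference between -0.5 and 0.5. ARL2, a small GTPase that acts with tubulin folding cofactors, was among them with differences of -0.02 and 4.02, and 4 of the 49 had opposite signs. ADGRD1 had the smallest adjusted p by limma, 8.1e-05. The gene called lower was TMEFF2, a transmembrane protein with follistatin-like domains, at -2.51 and -0.55. ARL2 and TMEFF2 are named after their values were seen. Without the block the same 4 arrays gave 0 called genes by limma and 8 at an unadjusted p under 0.05.

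The paired difference, miR-21 minus control vector within a replicate number, was then taken for every gene. Across the 12824 genes the differences of replicate 1 and replicate 2 had a Pearson correlation of -0.05 and a Spearman correlation of -0.09. These are correlations across genes, which share 4 arrays and are not independent. In the same direction in both replicates were 5918 genes (46.1%): 3777 higher (29.5%) and 2141 lower (16.7%). The other genes went in opposite directions, 4004 of them higher in replicate 1 and lower in replicate 2. The spread of the differences was alike, with an SD across genes of 0.51 in replicate 1 and 0.61 in replicate 2, and the medians were 0.13 and 0.02. The excess of higher over lower genes depended on the scaling: after cyclic loess 3050 genes were higher and 3044 lower in both. Loess moved the replicate 1 median of all genes from 0.13 to -0.02, and centring each array on its median moved it to 0.23.

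**Figure D1:**
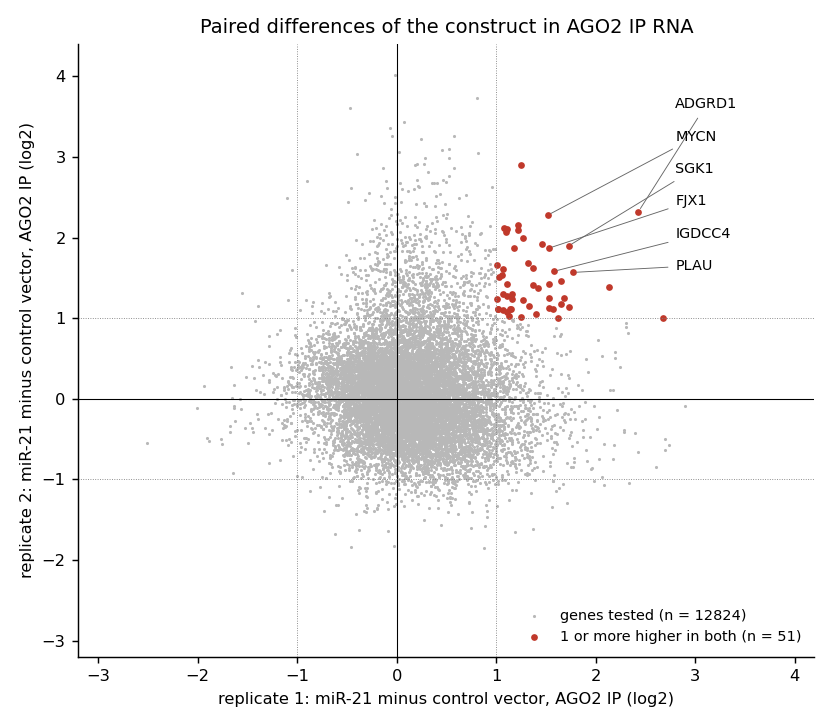
Each point is 1 of 12824 genes, with its miR-21 minus control vector difference in AGO2 IP RNA of replicate 1 on the x axis and of replicate 2 on the y axis, both in log2 units. Dotted lines mark differences of 1, the 51 red points are 1 or more higher in both replicates, and no gene lies 1 or more lower in both.

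In both replicates 51 genes (0.398%) were higher with miR-21 by 1 or more, and 0 (0%) were lower by 1 or more. Replicate 1 held 677 genes higher by 1 or more and replicate 2 held 913. The shared 51 made up 7.53% of the 677, beside 913 of all 12824 genes that were as high in replicate 2. They made up 5.59% of the 913, beside 677 of all 12824 genes in replicate 1. Both shares lay near those over all genes, so the count of 51 does not by itself show that the replicates were alike. At differences of 0.5 or more, both replicates held 570 genes (4.44%) higher and 103 (0.803%) lower, while 589 and 191 exceeded 0.5 in opposite directions. Both miR-21 arrays lay above both control arrays in 49 of the 51 genes and in 1302 of all genes (10.2%). The 51 were chosen on these values, so both the count of separate groups and the following count describe the choice. With the block, 36 of the 51 had an unadjusted p under 0.05, beside 2.75% of all genes, and none had an adjusted p under that threshold.

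The gene highest by the smaller of its paired differences was ADGRD1, an adhesion G protein-coupled receptor. It read 3.81 and 4.55 on the control arrays and 6.24 and 6.87 on the miR-21 arrays, replicate 1 first. Both miR-21 arrays were above both controls. The differences were 2.43 and 2.32, with a mean of 2.38 ± 0.99 (SE from limma without the block, and 0.48 with it).

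SGK1, a serum- and glucocorticoid-induced kinase, read 7.16 and 7.65 with the control vector and 8.89 and 9.54 with miR-21, differences of 1.73 and 1.90. PLAU, the urokinase plasminogen activator, read 4.45 and 4.56 against 6.22 and 6.13, differences of 1.78 and 1.57. MYCN, a transcription factor of the MYC family, read 6.81 and 7.21 against 8.33 and 9.49, differences of 1.52 and 2.28. The miR-21 arrays did not overlap the control arrays in any of these 3 genes. The SE of their mean difference was 1.24, 0.66 and 1.33 without the block and 0.75, 0.48 and 0.63 with it. MYCN has 2 further probe sets above the filter, and both were lower in both replicates, at -0.19 and -0.81 in replicate 1 and -0.33 and -0.37 in replicate 2.

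DUSP5, a nuclear phosphatase that inactivates ERK, read 6.03 and 6.2 with the control vector and 7.48 and 8.12 with miR-21, differences of 1.46 and 1.92. GFI1, a transcriptional repressor of blood and lymphoid development, read 6.86 and 7.11 against 8.23 and 8.52, differences of 1.37 and 1.41. SRPX, an extracellular sushi-repeat protein, read 4.71 and 6.11 against 6.84 and 7.50, differences of 2.14 and 1.38. These 3 genes also had both miR-21 arrays above both control arrays.

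APPL2, an endosomal adaptor protein, read 3.71 and 5.36 with the control vector and 5.37 and 6.83 with miR-21, so its groups all but met: the lower miR-21 array stood at the level of the higher control array. Its differences were 1.65 and 1.46. IGDCC4, an immunoglobulin superfamily membrane protein, differed by 1.58 and 1.58, and FJX1, a secreted homologue of fly four-jointed, by 1.53 and 1.87. PIP5K1B, a kinase that makes PIP2, differed by 1.53 and 1.42. ZMYM6, a zinc finger protein, completed the 12 highest at 1.43 and 1.38. The 3 other probe sets of ZMYM6 above the filter were all lower with miR-21 in replicate 2, from -0.26 to -1.08. Over the 51 genes, 24 had another probe set above the filter, and in 9 of these every such probe set was also higher in both replicates.

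Replicate 2 of the IgG IP carried much of the same difference. All 51 genes were above 0 in the IgG IP difference of replicate 2, beside 52.9% of all genes. By 1 or more, 39 of the 51 were higher there, beside 8.54% of all genes, and the median of the 51 was 1.22. Of the 913 genes higher by 1 or more in AGO2 IP of replicate 2, 749 were as high there, and the median of the 913 was 1.42. The 51 are part of those 913, so their IgG IP values of replicate 2 are not particular to them. In the IgG IP of replicate 1 none of the 51 reached 1 and the median was 0.13, beside 63 of all 12824 genes and a median of 0.02. In Total RNA none of the 51 reached 1 in either replicate, beside 5 and 0 of all genes, and their medians were 0.15 and 0.02. So few genes reached 1 in those arrays that a count of none among 51 says little about the 51. ADGRD1 differed by 0.35 and 1.97 in IgG IP and by 0.16 and 0.02 in Total RNA. FJX1 differed by -0.23 and 2.23 in IgG IP, so its replicate 2 value there was above that in AGO2 IP. APPL2 was the member of the 12 least marked in IgG IP of replicate 2, at 0.32, beside 0.49 in replicate 1. In 37 of the 51 genes the AGO2 IP difference exceeded the IgG IP difference in both replicates, as in 28.1% of all genes. Choosing genes high in AGO2 IP favours such an excess, and none passed the test of it.

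**Figure D2:**
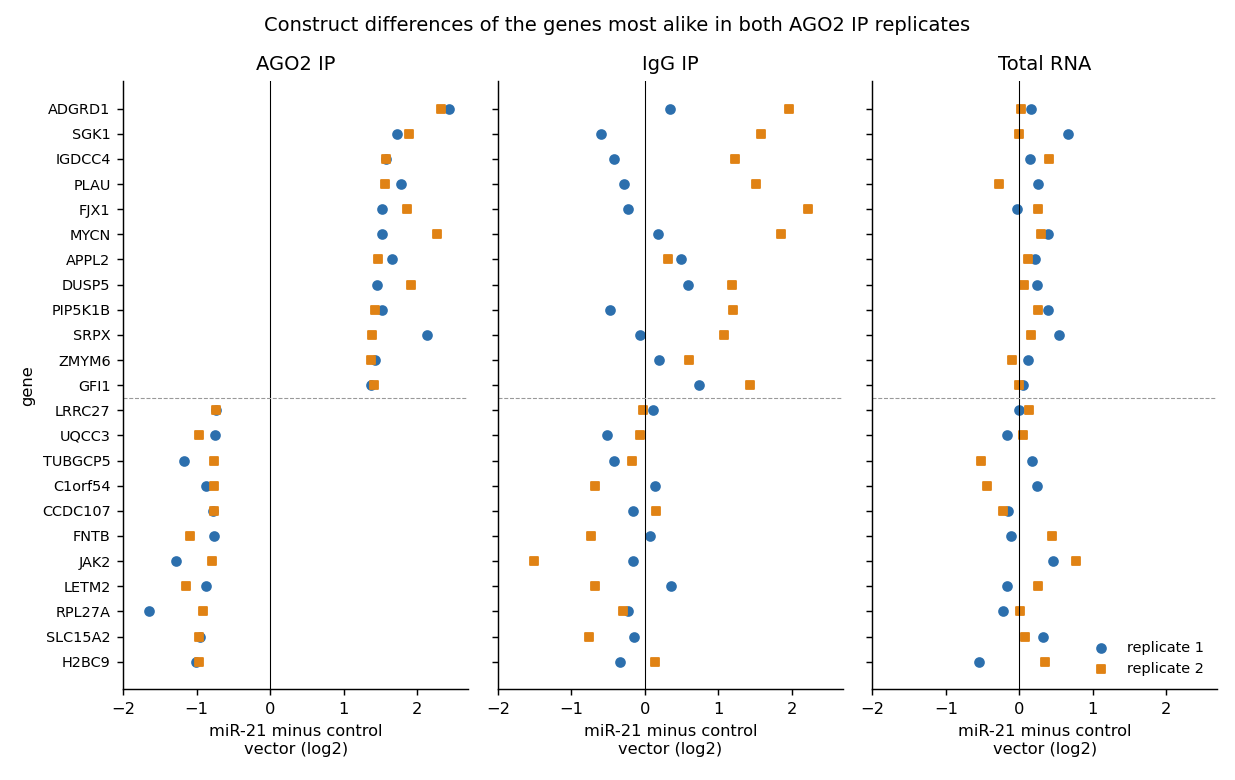
Points give the miR-21 minus control vector difference (log2) of the 12 highest and 11 of the 12 lowest genes in AGO2 IP, IgG IP and Total RNA, with circles for replicate 1 and squares for replicate 2. ADGRD1 sits at 2.43 and 2.32 in AGO2 IP, at 0.35 and 1.97 in IgG IP and at 0.16 and 0.02 in Total RNA.

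The lowest genes were less far apart, and 11 of the 12 lowest are described here. They were chosen on these values, so separate groups among them describe the choice. The share of all genes with both miR-21 arrays below both controls is not given here. H2BC9, a replication-dependent histone H2B gene, read 5.68 and 5.30 with the control vector and 4.68 and 4.34 with miR-21, differences of -1.0 and -0.96 with both miR-21 arrays below both controls. RPL27A, a protein of the large ribosomal subunit, read 9.72 and 8.72 against 8.07 and 7.81, differences of -1.65 and -0.92, again without overlap. Histone genes and ribosomal protein genes have close copies and pseudogenes, so these probe sets may read more than 1 gene.

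SLC15A2, a peptide transporter, read 3.55 and 5.43 with the control vector and 2.60 and 4.46 with miR-21. The miR-21 array of replicate 2 was above the control array of replicate 1, so the groups overlapped although both paired differences, -0.95 and -0.97, were alike. JAK2, the cytokine receptor kinase, read 4.21 and 7.02 against 2.92 and 6.23, differences of -1.29 and -0.79. Another JAK2 probe set above the filter read 0.71 and -0.76, with opposite signs. LETM2, a mitochondrial membrane protein, differed by -0.87 and -1.14, and FNTB, the beta subunit of farnesyltransferase, by -0.77 and -1.09.

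TUBGCP5, a subunit of the gamma-tubulin ring complex, differed by -1.18 and -0.76, while its other probe set above the filter read 1.10 and -0.27. UQCC3, an assembly factor of respiratory complex III, differed by -0.75 and -0.97. CCDC107, C1orf54 and LRRC27 lay between -0.73 and -0.87 in both replicates, and the other LRRC27 probe sets above the filter read 0.10 and -0.16 and -0.23 and -0.29. Not every array of these genes reached the filter level of 4.02, which applied to the mean over 12 arrays: SLC15A2 and FNTB were below it on both AGO2 IP arrays of replicate 1, and JAK2, C1orf54 and LRRC27 on the miR-21 array of replicate 1. Of the highest genes, ADGRD1 and APPL2 were below it on the control array of replicate 1. In IgG IP of replicate 2 the lowest of these 11 was JAK2 at -1.51, while H2BC9 read 0.13 and CCDC107 0.16 there. Over the 103 genes at 0.5 or more lower in both replicates, the median IgG IP difference was -0.09 in replicate 1 and -0.25 in replicate 2.

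Reported miR-21 targets were examined as a list. Of 84 listed genes 62 were tested, and limma called none of them with or without the block. Higher in both replicates were 22 of the 62, lower in both were 6, and 34 had opposite signs, beside 29.5% higher and 16.7% lower in both over all genes. The median difference was 0.38 in replicate 1 and -0.07 in replicate 2, beside 0.13 and 0.02 for all genes. After cyclic loess the medians were 0.20 and -0.02, and after median centring 0.49 and -0.12. Without the filter on low values they were 0.33 and 0.03, both above 0, so the sign of the replicate 2 median depended on the filter. In IgG IP the list medians were 0.00 and -0.02, and in Total RNA 0.06 and 0.01.

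Among the targets that restrain RAS-ERK signalling, DUSP5 has been given above. SPRY1, a Sprouty inhibitor of receptor tyrosine kinase signalling, read 4.85 and 7.65 with the control vector and 5.94 and 7.89 with miR-21, differences of 1.09 and 0.24. Its other probe set above the filter was lower in both replicates, at -0.48 and -0.17, so the SPRY1 probe sets disagreed in direction. SPRY2, of the same family, differed by 0.82 and -0.13. RASGRP1, an activator of RAS in T cells, differed by 0.02 and -0.14.

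TGFBR2, a receptor of TGF-beta, read 8.74 and 8.05 with the control vector and 9.21 and 9.86 with miR-21, differences of 0.47 and 1.82. BMPR2, a receptor of bone morphogenetic proteins, read 3.76 and 7.34 against 5.51 and 7.21, differences of 1.75 and -0.13. Its control array of replicate 1 was below the filter level, and its other probe sets above the filter read 0.99 and 0.44, 0.27 and 0.11, and 0.62 and -0.78. For these receptors the larger difference came from different replicates. TGFBR2 also differed by 1.29 in IgG IP of replicate 2.

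RECK, a membrane inhibitor of matrix metalloproteinases, read 7.57 and 7.93 with the control vector and 8.59 and 9.05 with miR-21, differences of 1.02 and 1.12. It was, with DUSP5, 1 of the 2 targets at 1 or more in both replicates. The 3 other RECK probe sets above the filter were lower with miR-21 in both replicates, from -0.12 to -1.10 in replicate 1 and from -0.26 to -0.78 in replicate 2, so the probe sets of RECK disagreed in direction. TIMP3, a secreted metalloproteinase inhibitor, differed by -0.14 and 0.50.

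BCL6, a transcriptional repressor of lymphocytes, read 4.76 and 7.53 with the control vector and 7.07 and 8.41 with miR-21, differences of 2.31 and 0.88. Its control array of replicate 2 was above its miR-21 array of replicate 1. TNFAIP3, a deubiquitinase that limits NF-kappaB, differed by 0.79 and 1.07, and TIAM1, an activator of RAC1, by 0.76 and 0.79. In IgG IP BCL6 differed by 0.45 and 1.19, TNFAIP3 by 0.12 and 1.13 and TIAM1 by 0.22 and 0.46. The replicate 2 values of BCL6 and TNFAIP3 there were above those in AGO2 IP. TIAM1 differed by 0.16 and -0.06 in Total RNA. In all, 7 targets were 0.5 or more higher in both replicates and 2 were lower by as much. The lower ones were LRRFIP1, an RNA-binding regulator of transcription, at -0.90 and -0.50, and NCAPG, a condensin subunit, at -0.54 and -0.51. NCAPG had another probe set above the filter at 0.04 and -0.60, and 3 of the 5 others of LRRFIP1 were higher in replicate 1. LRRFIP1 is named after its values were seen.

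Other reported targets went in opposite directions in the replicates. PELI1, a ubiquitin ligase of receptor signalling, differed by 1.12 and -0.34, and FBXO11, a substrate receptor of ubiquitin ligases, by 0.61 and -0.78, with its other probe sets above the filter at 1.55 and -1.03 and at -0.20 and -0.53. SATB1, a chromatin organiser of T cells, read 11.71 and 11.20 with the control vector and 11.38 and 12.02 with miR-21, differences of -0.33 and 0.82. Its IgG IP differences were much the same, at -0.43 and 0.88. For other targets the direction depended on the probe set. TPM1, a tropomyosin, differed by -0.20 and 0.14 on its brightest probe set, while others above the filter read 1.08 and 0.45, 0.26 and 0.75, and -0.04 and -0.09. PLEKHA1, a phosphoinositide-binding protein, differed by -0.01 and 0.80, and its other probe set above the filter was higher in both replicates, at 0.87 and 0.84. SESN1, a stress-induced regulator of mTORC1, was higher in both, by 0.22 and 1.03.

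**Figure D3:**
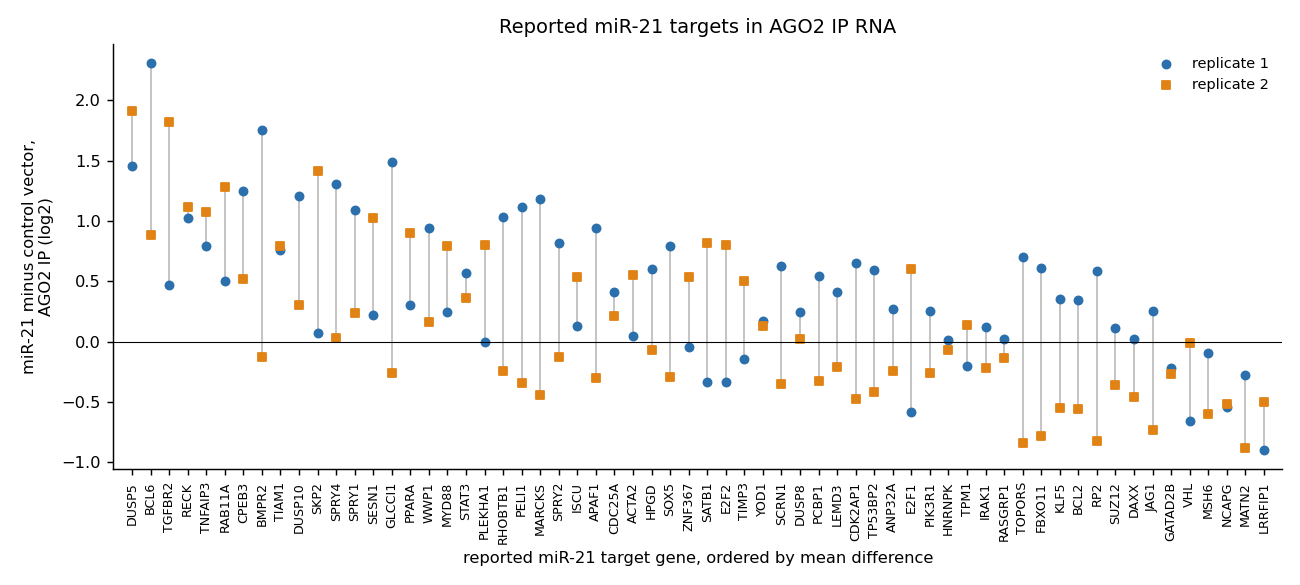
Each of 62 reported miR-21 targets has a circle for its replicate 1 difference and a square for its replicate 2 difference, miR-21 minus control vector in AGO2 IP (log2), in order of the mean. The circles have a median of 0.38 and the squares of -0.07, and for 34 genes the symbols lie on opposite sides of 0.

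The list of reported miR-17 to miR-92 cluster targets, whose seeds differ from that of miR-21, was higher in both replicates. Its medians were 0.49 and 0.61, with 25 of 33 tested genes above 0 in both and 1 below 0 in both, and limma called none. Over all genes 29.5% were higher and 16.7% lower in both, and the counts of this list and of each list below are to be read beside those shares. MYLIP, a ubiquitin ligase for lipoprotein receptors, read 9.30 and 8.72 with the control vector and 10.41 and 9.79 with miR-21, differences of 1.11 and 1.08. TXNIP, a thioredoxin inhibitor, differed by 0.99 and 1.85, ATG16L1, an autophagy protein, by 0.93 and 1.84, and JAK1, a cytokine receptor kinase, by 0.81 and 0.96. In IgG IP of replicate 2 MYLIP differed by 1.12, TXNIP by 1.28, ATG16L1 by 2.09 and JAK1 by 0.83. MYLIP and ATG16L1 were above their AGO2 IP values there. In IgG IP the medians of the list were 0.06 in replicate 1 and 0.74 in replicate 2. In Total RNA they were 0.13 and 0.02. TGFBR2, described above with the miR-21 targets, also belongs to this list, so the cluster list is not independent of the miR-21 list.

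Among lists with 10 or more genes tested, T cell activation response genes had the highest medians in AGO2 IP, 0.78 and 0.63, with 18 of 21 genes higher in both replicates and 1 lower in both. ZFP36, which binds AU-rich elements and promotes mRNA decay, differed by 1.16 and 1.23, and IER3, an early response gene, by 0.93 and 1.43. DUSP5, BCL6 and TNFAIP3 belong to this list and to the miR-21 targets, so the lists share genes. IgG IP gave list medians of 0.09 and 0.72. IER3 was as high in IgG IP, at 0.91 and 1.41, as in AGO2 IP, and it differed by 0.86 in Total RNA of replicate 1.

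The TGF-beta and BMP pathway had 17 of 28 genes higher in both replicates and 1 lower in both, with medians of 0.55 and 0.48. ACVR1, a type I receptor for BMPs, read 7.61 and 8.08 with the control vector and 9.23 and 9.09 with miR-21, differences of 1.63 and 1.00. SMURF1, a ubiquitin ligase for SMAD proteins, differed by 0.97 and 1.58, BAMBI, a decoy receptor, by 0.75 and 1.41, and ID2, a target gene of BMP signalling and below the filter level on the control array of replicate 1, by 2.30 and 0.94. Of these genes SMURF1 and BAMBI reached 1.61 and 1.27 in IgG IP of replicate 2. RAS-ERK inhibitors had medians of 0.77 and 0.03, with 12 of 23 higher in both and 2 lower in both. DUSP1, a phosphatase of MAP kinases, differed by 1.22 and 2.09, and its other probe set above the filter by -0.62 and 0.14.

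The p53 targets had medians of 0.38 and -0.02, with 9 of 23 higher in both. TP53INP1, which promotes p53 activity, differed by 1.32 and 0.77, and SESN2, a sestrin, by 0.67 and 1.53. In IgG IP of replicate 2 TP53INP1 differed by 0.23 and SESN2 by 1.97, so SESN2 was above its AGO2 IP value there. Apoptosis regulators had medians of 0.14 and 0.10, near those of all genes. BIK, a pro-apoptotic BH3-only protein, differed by 0.64 and 1.80, and TNFRSF10A, a death receptor for TRAIL, by -0.57 and -0.84. Their IgG IP differences in replicate 2 were 1.66 and -0.37. CHAC1, an enzyme of glutathione breakdown induced by the integrated stress response, differed by 0.81 and 3.74, and by 3.51 in IgG IP of replicate 2.

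The RISC and miRNA biogenesis list had medians of 0.20 and -0.01, with 14 of 34 genes higher in both replicates and 3 lower in both. The AGO2 transcript read 5.85 and 6.55 with the control vector and 7.19 and 7.10 with miR-21, differences of 1.34 and 0.55. In Total RNA it differed by 0.22 and -0.06. TNRC6C, a scaffold of the silencing complex, differed by 0.61 and 0.86, but its 3 other probe sets above the filter were all lower in replicate 1, from -0.65 to -0.96. MOV10, an RNA helicase, differed by 0.44 and 1.62. In IgG IP the AGO2 transcript differed by -0.01 and 0.89, TNRC6C by 0.03 and 0.88 and MOV10 by 0.16 and 2.32. In replicate 2 each of these IgG IP values was above that of the same gene in AGO2 IP.

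Lists of abundant housekeeping mRNAs lay near 0. Cytosolic ribosomal protein genes had medians of 0.04 and -0.04, with 13 of 52 higher in both and 10 lower in both, RPLP2 at -0.83 and -0.66 among the lower. The RPLP2 probe set read only 5.51 to 6.50 on the AGO2 IP arrays, far below the median levels of its list, 12.99 to 13.22. Oxidative phosphorylation genes had medians of -0.08 and 0.14. Replication-dependent histones were not abundant on these arrays, and 20 of 51 listed genes were tested. Their median level was 4.17 to 5.18 on the AGO2 IP arrays, beside the filter level of 4.02. Their median differences were below 0 in both replicates, -0.20 and -0.23, with 10 of 20 lower in both and 4 higher in both. H4C8, a histone H4 gene, differed by -0.41 and -0.90, with its miR-21 array of replicate 1 below the filter level. The histone medians stayed below 0 after median centring (-0.09 and -0.28) and after cyclic loess (-0.26 and -0.33). In IgG IP they were 0.01 and -0.11, and in Total RNA -0.13 and 0.01. The part of the low levels in these medians was not tested.

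Cell cycle genes differed by replicate. The mitosis list had medians of 0.39 and -0.12, with 15 of 40 higher in both, CDC25C, a phosphatase that activates CDK1, at 0.84 and 2.04 and CCNB1, cyclin B1, at 0.69 and 1.53 among them. In IgG IP of replicate 2 CDC25C differed by 1.74 and CCNB1 by 1.48. DNA replication genes had medians of 0.13 and -0.04, with POLE2, a subunit of DNA polymerase epsilon, at 0.86 and 1.18. Very long mRNAs had medians of 0.47 and -0.02. T cell receptor signalling had medians of 0.11 and 0.00, with LCK, the proximal kinase of the receptor, at 0.34 and 0.99 and THEMIS, a regulator of its signal, at -0.40 and -0.88 (0.56 and -0.88 on its other probe set). In IgG IP of replicate 2 POLE2 differed by 0.75, LCK by 1.18 and THEMIS by -0.60. The interferon response had medians of 0.31 and -0.18. The remaining lists were heat shock (0.09 and -0.29), glycolysis (0.12 and 0.29), cholesterol synthesis (0.02 and 0.03), the unfolded protein and integrated stress response (0.29 and -0.05), T cell markers (0.02 and 0.10) and ZNF zinc finger genes (0.16 and 0.00).

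Against the scalings, the medians of the miR-17 to miR-92 targets, the T cell activation genes and the TGF-beta and BMP genes kept their sign in both replicates under median centring and cyclic loess. After loess they were 0.28 and 0.64, 0.64 and 0.57, and 0.36 and 0.52. The RAS-ERK inhibitors were at 0.88 and -0.02 after centring. No list is set apart from other genes by a test here.

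**Figure D4:**
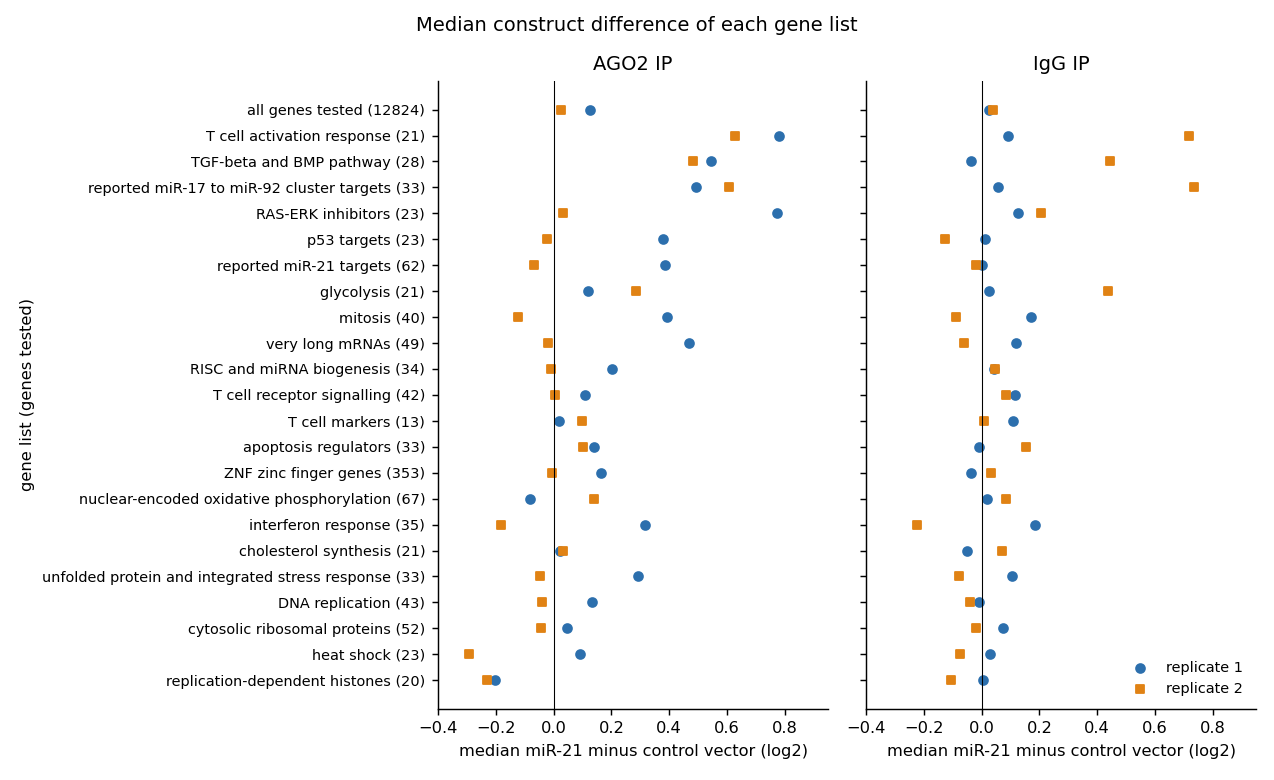
Points give the median miR-21 minus control vector difference (log2) of each gene list, with the number of genes tested in parentheses, for AGO2 IP on the left and IgG IP on the right, with circles for replicate 1 and squares for replicate 2. T cell activation genes lie at 0.78 and 0.63 in AGO2 IP and at 0.09 and 0.72 in IgG IP.

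The AGO2 IP difference of replicate 2 was compared with differences that used other arrays. It had a correlation of 0.84 across 12824 genes with the IgG IP difference of replicate 2, with the same direction in 78.4% of genes. These values share the replicate number but no array. In replicate 1 the same correlation was 0.07, with the same direction in 52.9%. With the AGO2 IP minus IgG IP difference of replicate 1 the AGO2 IP construct difference of replicate 2 had a correlation of 0.62 for the control vector and 0.59 for miR-21, again with no array shared. The reverse, the construct difference of replicate 1 with AGO2 IP minus IgG IP of replicate 2, gave 0.06 and 0.11.

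Of the 913 genes higher by 1 or more in replicate 2, 95.1% were above 0 in AGO2 IP minus IgG IP of the replicate 1 control arrays and 95.8% in that of the miR-21 arrays, beside 43.0% and 40.9% of all genes. Their median there was 1.14 and 1.33, and their median construct difference in replicate 1 was 0.21. For the 677 genes higher by 1 or more in replicate 1 the shares above 0 in AGO2 IP minus IgG IP of replicate 2 were 51.6% and 56.9%, beside 47.5% and 43.7% of all genes, and their median construct difference in replicate 2 was -0.15. The mRNAs higher with miR-21 in replicate 2 were thus largely those that AGO2 IP held above IgG IP in replicate 1 in cells of either construct. The part of the miR-21 construct in that pattern cannot be told apart from differences between the IP arrays of replicate 2.

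**Figure D5:**
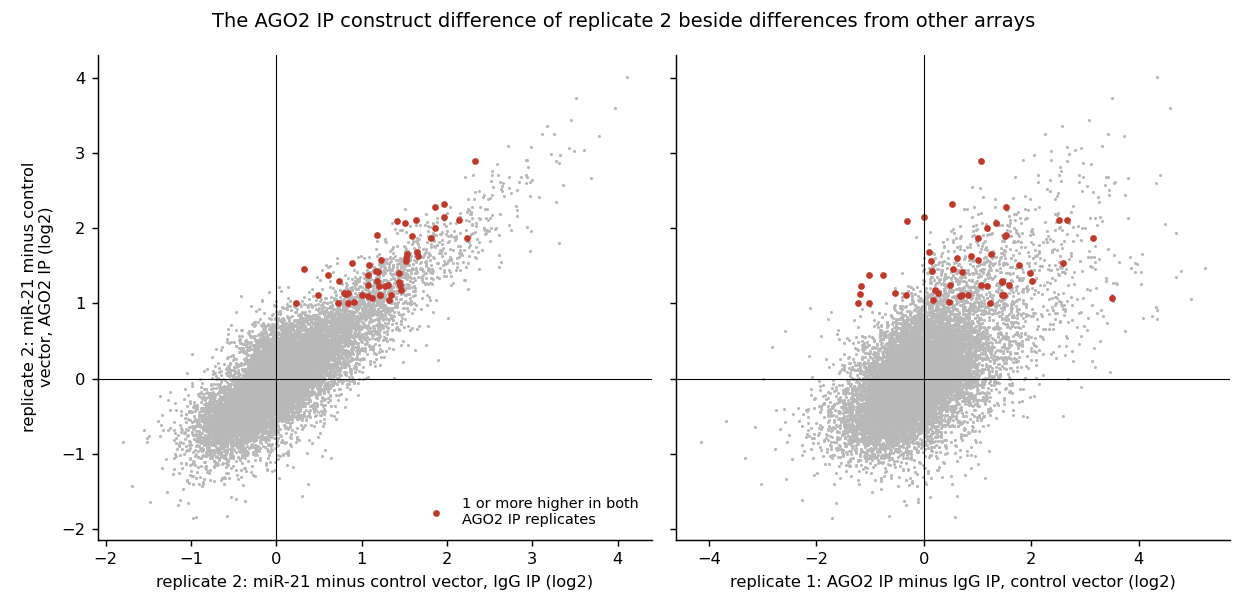
Both panels show, for 12824 genes, the AGO2 IP difference miR-21 minus control vector of replicate 2 on the y axis (log2), against the IgG IP difference of replicate 2 on the left and the AGO2 IP minus IgG IP difference of the replicate 1 control arrays on the right. The correlations are 0.84 and 0.62, and red points are the 51 genes 1 or more higher in both AGO2 IP replicates.

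Some genes differed by 1 or more in opposite directions, 24 of them higher in replicate 1 and lower in replicate 2 and 5 the reverse, beside the 51 that were higher in both. First by the smaller of its differences was ANKRD36, an ankyrin repeat gene of a family with close copies. It read 2.03 and 7.62 with the control vector and 3.40 and 6.0 with miR-21, differences of 1.37 and -1.62. Both of its replicate 1 readings were below the filter level of 4.02, so that difference and its rank rest on low values. ANKRD13B, a ubiquitin-binding ankyrin repeat protein, went the other way at -1.55 and 1.31, and both genes are named after their values were seen.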

How the data were processed

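Arrays of 4 AGO2 IP samples, 2 per construct, were compared, and all 12 arrays of the 6 groups entered the fit. Per the submitters' processing notes the authors made the deposited log2 values with RMA. The RMA version and settings are not stated in those notes. Each array had 54675 probe sets, 62 of them controls. The platform annotation listed 42898, of which 41097 had a single gene symbol and 1801 several. A further 11721 had none. Probe sets with 1 symbol (41043 of them matched to a current symbol) were kept, and each of 19775 genes took its probe set of highest mean over the 12 arrays. The 12824 genes at or above 4.02, the median mean of the noncontrol probe sets, were tested.

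The fit was limma 3.58.1 in R 4.3.3 (with the data.table package, version 1.17.8) with 6 group means and Benjamini-Hochberg adjustment at 0.05, and was checked on simulated data. Figures used Python 3.11.15, pandas 2.3.3 and matplotlib 3.10.9. Replicate numbers paired the arrays: arrays with the same number deviated together from their groups, with correlations across genes of 0.468 to 0.873 over 15 pairs of groups, and 0.861 between the AGO2 IP groups. Values with the number as a block therefore stand beside those without it.

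Genes named were the 12 highest and 12 lowest by the smaller of their same-sign paired differences, up to 4 per list by the same rule, any called genes, and a fixed set tied to miR-21, of which 15 were tested; some named genes are left to the counts of their list. Members and lists were chosen with earlier results of these data known. Alternatives were other scalings, no filter, every probe set with 1 symbol, array weights, the block, the AGO2 IP arrays alone and leaving out arrays. With arrays, precision is limited by how many replicates there are. Some genes are not analysed here, and 1 gene of the naming rule is not reported here.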

Additional observations from a re-analysis of the deposited data

Results flagged for a closer look

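Probe sets without a single gene symbol were not part of the comparison of genes. Of 4184 such probe sets above the filter, 14 were higher with miR-21 by 1 or more in both AGO2 IP replicates and 7 were lower by 1 or more in both. The genes tested, with 1 probe set each, held none lower by that much. Over every probe set with 1 symbol, 130 were higher and 7 lower by 1 or more in both, so such falls were not particular to probe sets without a single symbol. No replicate group had enough arrays for a test of single outlying arrays, and what these probe sets measure was not tested.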

How the results depend on the processing

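The count of genes called in AGO2 IP stayed at 0 with and without the replicate block, under median centring, cyclic loess, no filter, every probe set with 1 symbol, array weights and each left-out array or replicate, and both interaction counts stayed at 0 under the alternatives run for them. The exception was the fit to the 4 AGO2 IP arrays with the replicate block, with 49 genes. The replicate block changed no other call. The 51 genes 1 or more apart in the same direction became 66 after centring, 34 after loess, 56 without the filter and 137 over every probe set with 1 symbol. The share of genes with the same direction was 47.5% after loess and 45.2% without the filter. The median of the reported miR-21 targets, 0.25, was 0.38 without replicate 2 and -0.07 without replicate 1. No named gene changed sign under centring, loess or the replicate block. With 1 AGO2 IP array left out, with or without the block (the lone array is assumed to vary like the other groups), the lowest and highest estimates lay on both sides of 0 for these genes: ANKRD13B -1.73 to 1.48, ANKRD36 -2.92 to 2.67, ARL2 -0.72 to 4.71, BMPR2 -0.98 to 2.60, C1orf54 -1.70 to 0.068, FBXO11 -1.83 to 1.66, FNTB -2.50 to 0.64, H4C8 -1.31 to 0.0015, JAK2 -2.70 to 0.62, LRRFIP1 -1.73 to 0.33, MOV10 -0.086 to 2.14, MYLIP -0.084 to 2.27, NCAPG -2.39 to 1.34, PELI1 -1.02 to 1.80, PLEKHA1 -0.45 to 1.24, RASGRP1 -1.01 to 0.89, SATB1 -0.28 to 0.77, SESN1 -0.21 to 1.46, SPRY1 -0.73 to 2.06, SPRY2 -0.20 to 0.89, THEMIS -1.97 to 0.70, TIMP3 -0.031 to 0.39, TMEFF2 -3.46 to 0.40, TNFRSF10A -1.79 to 0.38, TP53INP1 -0.39 to 2.48, TPM1 -0.65 to 0.58. Without the block, such a fit no longer compares arrays in pairs, so its estimate also holds the difference in level between the replicates. NCAPG, for example, read 7.82 and 11.53 with the control vector and 7.28 and 11.01 with miR-21, replicate 1 first. Both its paired differences were below 0. A range on both sides of 0 therefore does not by itself show that a gene's pairs disagreed. The part of the level difference in each range was not tested. The sign kept by the other named genes in those fits is that of values that did not pass the test.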
